A study of Homo sapiens with 9 samples.

Results

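The glutathione S-transferases described here are 10 genes of 5 classes, GSTM1 to GSTM5 of the mu class, GSTT1 and GSTT2 of the theta class, GSTP1 (pi), GSTO1 (omega) and GSTZ1 (zeta). Members were all probe sets on the Affymetrix U133 human array used whose annotation names 1 of these genes as its only gene. The 10 genes are among 11963 that the array measures by such probe sets. The rule gave 12 of the 22283 probe sets, with 2 probe sets each for GSTM1 and GSTM4 and 1 for each other gene. A mean signal of at least 58.1 over the 9 arrays was required for testing, and 11 of the 12 member probe sets and 13345 probe sets in all passed it. Gene expression was measured in A673, an established Ewing sarcoma cell line with the EWS/FLI fusion, in a study of EZH2 in tumour growth and differentiation. Cells were transfected for 48 hours with 5 nM siRNA, either a control siRNA (2 arrays), an EZH2 siRNA called no.2 (2 arrays) or an EZH2 siRNA whose title marks it as verified and gives no number (1 array, called here the unnumbered EZH2 siRNA). Whether it is the same siRNA as no.2 is not stated. Other cells were exposed for 24 hours to TSA (trichostatin A at 100 nM), which blocks histone deacetylases (2 arrays), or 0.01% DMSO, its solvent, for the same time (2 arrays). All groups are of this 1 cell line, and all carry the fusion.

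Glutathione S-transferases join the tripeptide glutathione to reactive and fat-soluble compounds, including many drugs, so that the conjugates can leave the cell. The mu, pi and theta classes are best known for detoxification, while GSTO1 and GSTZ1 also have other substrates, GSTO1 acting as a thiol transferase and GSTZ1 as an enzyme of tyrosine breakdown. GSTM4 is a known target of the EWS/FLI fusion in Ewing sarcoma, and the ETS domain of the fusion protein binds the DNA core GGAA. EZH2, the target of the siRNAs, is the methyltransferase subunit of the Polycomb complex that marks histone H3 in repressed chromatin.

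Array medians ran from 125 to 159 and the trimmed mean signal from 500.1 to 500.2, and the Pearson correlation of replicate arrays over the tested probe sets was 0.932 to 0.960. EZH2 itself read 1130.1 and 1172 in the control arrays, 572 and 271 under siRNA no.2 and 681 under the unnumbered one, so every EZH2 siRNA array lay below both controls. Its log2 fold change with siRNA no.2 was −1.48 (SE 0.32). In DMSO EZH2 read 990 and 861 and in TSA 1257 and 1055, a log2 fold change of 0.31 (SE 0.32) for TSA against DMSO. All 6 Ewing tumour markers examined were above the signal filter, with CD99 at 14840 to 19651. By contrast, 0 of 3 epithelial and 0 of 3 skeletal muscle markers passed it, and 1 of 3 each for liver (SERPINA1), endothelium (PECAM1) and the blood markers on the array (CD3E). The number of arrays limits the precision, and the titles call the replicates biological without saying how they were grown, so a p here rests on the scatter of these samples alone. In bulk RNA, fewer cells and less RNA per cell cannot be told apart.

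No probe set of the array passed the adjusted threshold of 0.05 in any comparison (limma, Benjamini-Hochberg over 13345 probe sets), the members included. At an unadjusted limma p under 0.05, EZH2 siRNA no.2 gave 706 probe sets, TSA 320, the unnumbered EZH2 siRNA 672 and DMSO against the control siRNA 569. The member values below are therefore given as measured differences, none of which passed the test. Log2 fold changes are differences of log2(signal + 25.1), a scale on which the change of dim probe sets is understated.

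The 5 mu class genes lie next to each other on chromosome 1 in the order GSTM4, GSTM2, GSTM1, GSTM5 and GSTM3, with no other protein-coding gene between them. The sequences of the first 4 of them are shown because GSTM4, GSTM2 and GSTM1 had lower signals after both treatments while GSTM5, their neighbour, had higher ones. Each sequence is the 250 bases before the gene's start in RefSeq (GRCh38.p14), on the gene's strand, with every GGAA and its reverse complement TTCC in capitals. They are from chr1:109655849-109656098 (GSTM4), chr1:109667807-109668056 (GSTM2), chr1:109687567-109687816 (GSTM1) and chr1:109712001-109712250 (GSTM5), all on the plus strand.
GSTM4: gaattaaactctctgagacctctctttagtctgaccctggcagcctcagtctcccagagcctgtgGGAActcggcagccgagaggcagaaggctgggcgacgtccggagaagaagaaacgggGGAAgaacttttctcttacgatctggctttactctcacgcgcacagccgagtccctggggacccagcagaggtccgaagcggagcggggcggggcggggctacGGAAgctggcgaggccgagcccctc
GSTM2: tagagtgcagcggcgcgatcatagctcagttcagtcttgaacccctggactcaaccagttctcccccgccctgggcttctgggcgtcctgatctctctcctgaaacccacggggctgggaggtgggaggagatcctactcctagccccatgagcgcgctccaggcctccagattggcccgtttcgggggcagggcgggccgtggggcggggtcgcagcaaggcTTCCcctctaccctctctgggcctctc
GSTM1: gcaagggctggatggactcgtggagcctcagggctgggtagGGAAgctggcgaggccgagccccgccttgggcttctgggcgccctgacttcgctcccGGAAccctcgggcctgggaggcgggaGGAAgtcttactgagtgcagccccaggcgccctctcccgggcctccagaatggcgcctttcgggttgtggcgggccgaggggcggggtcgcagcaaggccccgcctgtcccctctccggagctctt
GSTM5: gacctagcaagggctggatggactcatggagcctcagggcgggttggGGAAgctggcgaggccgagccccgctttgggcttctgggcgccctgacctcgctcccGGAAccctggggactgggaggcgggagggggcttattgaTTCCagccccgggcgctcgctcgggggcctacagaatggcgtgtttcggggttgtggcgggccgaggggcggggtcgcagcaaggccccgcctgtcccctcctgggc

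The GSTM4 window held GGAA 3 times on the gene's strand, beginning 185, 128 and 25 bases before the start. Counting both strands, GSTM1, GSTM5 and GSTP1 held the core 3 times each, GSTM2 1 time, GSTZ1 2 times, GSTO1 5 times and GSTM3 6 times. GGAA was in 92.7% of the 35114 promoter windows of this length, with a median of 3 matches, the number in GSTM4. The tandem GGAAGGAA, which 3.06% of all windows held, was in the window of none of the 8 members with a sequence. Only these 250 bases were searched, so GGAA repeats farther from a start, of GSTM4 included, would not be seen. GSTM4 shared a run of 23 bases with both GSTM1 and GSTM5, GGAAgctggcgaggccgagcccc, which begins 25 bases before the start of GSTM4, 209 before that of GSTM1 and 203 before that of GSTM5. By global alignment the windows of GSTM1 and GSTM5 were 85.6% identical, those of GSTM2 and GSTM1 68.5%, those of GSTM4 and GSTM2 51.3% and those of GSTM4 and GSTM3 37.7%. GSTM1 and GSTM5 were the closest pair of mu class windows, and how the likeness of windows bears on the signals was not tested. The core of the antioxidant response element, TGACNNNGC, bound by the stress factor NRF2, was in the windows of GSTM1, GSTM5, GSTP1 and GSTO1 (2 matches in GSTO1) and in 10.9% of all windows, with both strands searched. A match is a description of these letters only.

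GSTM4, the fusion's target, had lower signals with EZH2 siRNA on both of its probe sets. The brighter probe set, 204149_s_at, read 2394 and 2543 with the control siRNA, 1447 and 1559 under siRNA no.2, 1731 under the unnumbered EZH2 siRNA, 2708 and 2460.3 in DMSO, and 2014 and 1619 in TSA. The 3 EZH2 siRNA arrays lay below both control siRNA arrays, both TSA arrays lay below both DMSO arrays, and the 2 kinds of control overlapped. The group means were 2468 ± 106 (SD, n = 2) with the control siRNA and 1503 ± 78.8 (n = 2) with siRNA no.2, or 60.9% of it. On the log2 scale this was a difference of −0.71 (SE 0.23; limma adjusted p = 0.913), with −0.72 within replicate 1 and −0.70 within replicate 2. The mean was 2584 ± 175 in DMSO and 1817 ± 279.6 in TSA (SD, n = 2 each), a log2 fold change of −0.51 (SE 0.23, limma adjusted p = 1.00).

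The other GSTM4 probe set, 210912_x_at, read 1029.85 and 1512 with the control siRNA, 536 and 892 with siRNA no.2, 595 with the unnumbered EZH2 siRNA, 1369 and 1083 in DMSO, and 851 and 875 in TSA. No treatment overlapped its control, as on the brighter probe set, but the order of the group means differed, with control siRNA before DMSO at the top and the unnumbered EZH2 siRNA below siRNA no.2 at the bottom. The dimmer probe set thus gave a log2 fold change of −0.83 (SE 0.31) with siRNA no.2, −1.04 (SE 0.38) with the unnumbered EZH2 siRNA and −0.48 (SE 0.31) in TSA. The value with siRNA no.2 was −0.47 without its replicate 1 array and −1.18 without its replicate 2 array, so its size depends on which array is kept. Ranked by mean signal of 204149_s_at, the groups ran DMSO, control siRNA, TSA, the unnumbered EZH2 siRNA and EZH2 siRNA no.2, and neither DMSO and control siRNA nor TSA and the unnumbered EZH2 siRNA were separated by their arrays.

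GSTM1, deleted from the genome of many people, had lower signals after each treatment on both of its probe sets. The labels do not say whether these cells carry the gene, and both probe sets can be hit by related transcripts. Probe set 204550_x_at read 4498 and 4586 with the control siRNA, 3239 and 3566 with siRNA no.2, 4043 with the unnumbered EZH2 siRNA, 5829.8 and 5606 in DMSO, and 4010.05 and 3686 in TSA. Every treated array lay below both arrays of its control, and TSA and DMSO were the farther apart pair. Its log2 fold change was −0.42 (SE 0.21) with siRNA no.2 and −0.57 (SE 0.21, 95% confidence interval −1.03 to −0.11, unadjusted) in TSA. Probe set 215333_x_at read 4625 and 4383 with the control siRNA, 3010.5 and 3547 with siRNA no.2, 3317 with the unnumbered EZH2 siRNA, 6125 and 5127 in DMSO, and 3501 and 3883 in TSA. It was likewise lower without overlap in each treatment, and gave −0.46 (SE 0.22) and −0.60 (SE 0.22) in the same comparisons.

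GSTM2, named for its muscle form, read 5314 and 4851 with the control siRNA, 4286 and 4148 with siRNA no.2, 4414 with the unnumbered EZH2 siRNA, 7185 and 5764 in DMSO, and 5206 and 3848 in TSA. Each treatment again lay below its control, with the TSA replicate 1 array inside the range of the control siRNA. GSTM2 had a log2 fold change of −0.27 (SE 0.23) with siRNA no.2 and −0.52 (SE 0.23) in TSA, and the latter was −0.30 without the TSA replicate 2 array. After quantile normalization the TSA and DMSO arrays of GSTM2 overlapped.

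GSTM3, the mu class gene at the far end of the row, read 3302 and 2221 with the control siRNA, 2074 and 2340.3 with siRNA no.2, 2309 with the unnumbered EZH2 siRNA, 5896 and 3059 in DMSO, and 3744 and 2266 in TSA. Replicate 1 was far above replicate 2 in control siRNA, DMSO and TSA, and the groups overlapped in all 4 comparisons of a group with its control or of the controls. GSTM3 had a log2 fold change of −0.29 (SE 0.35) with siRNA no.2 and −0.54 (SE 0.35) in TSA. The first value was −0.011 without the control siRNA replicate 1 array and −0.58 without the control siRNA replicate 2 array. The TSA value was −0.070 without the DMSO replicate 1 array and −1.01 without the DMSO replicate 2 array.

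GSTM5 was the mu class gene whose signals lay on the other side. It read 122 and 134 with the control siRNA, 137 and 191 with siRNA no.2, 167 with the unnumbered EZH2 siRNA, 76.0 and 135 in DMSO, and 159.7 and 232 in TSA. All treated arrays were above both arrays of their control, though with siRNA no.2 the nearest arrays were 134 and 137, and they overlapped once arrays were scaled to a common median or quantile-normalized. GSTM5 had a log2 fold change of 0.29 (SE 0.345) with siRNA no.2 and 0.78 (SE 0.345) in TSA, and the TSA value ran from 0.44 without the DMSO replicate 1 array to 1.11 without the DMSO replicate 2 array. With siRNA no.2 the value was 0.083 without the replicate 2 array of that group and 0.50 without its replicate 1 array. Its mean signal over the 9 arrays stood at the 50.3 percentile of all probe sets, against 84.0 to 97.3 for the other mu class probe sets. The suffixes _x_at and _s_at mark probe sets that can be hit by related transcripts, and all 7 mu class probe sets carry 1 of them, so how much of each signal comes from a neighbouring mu gene was not tested.

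**Figure D1:**
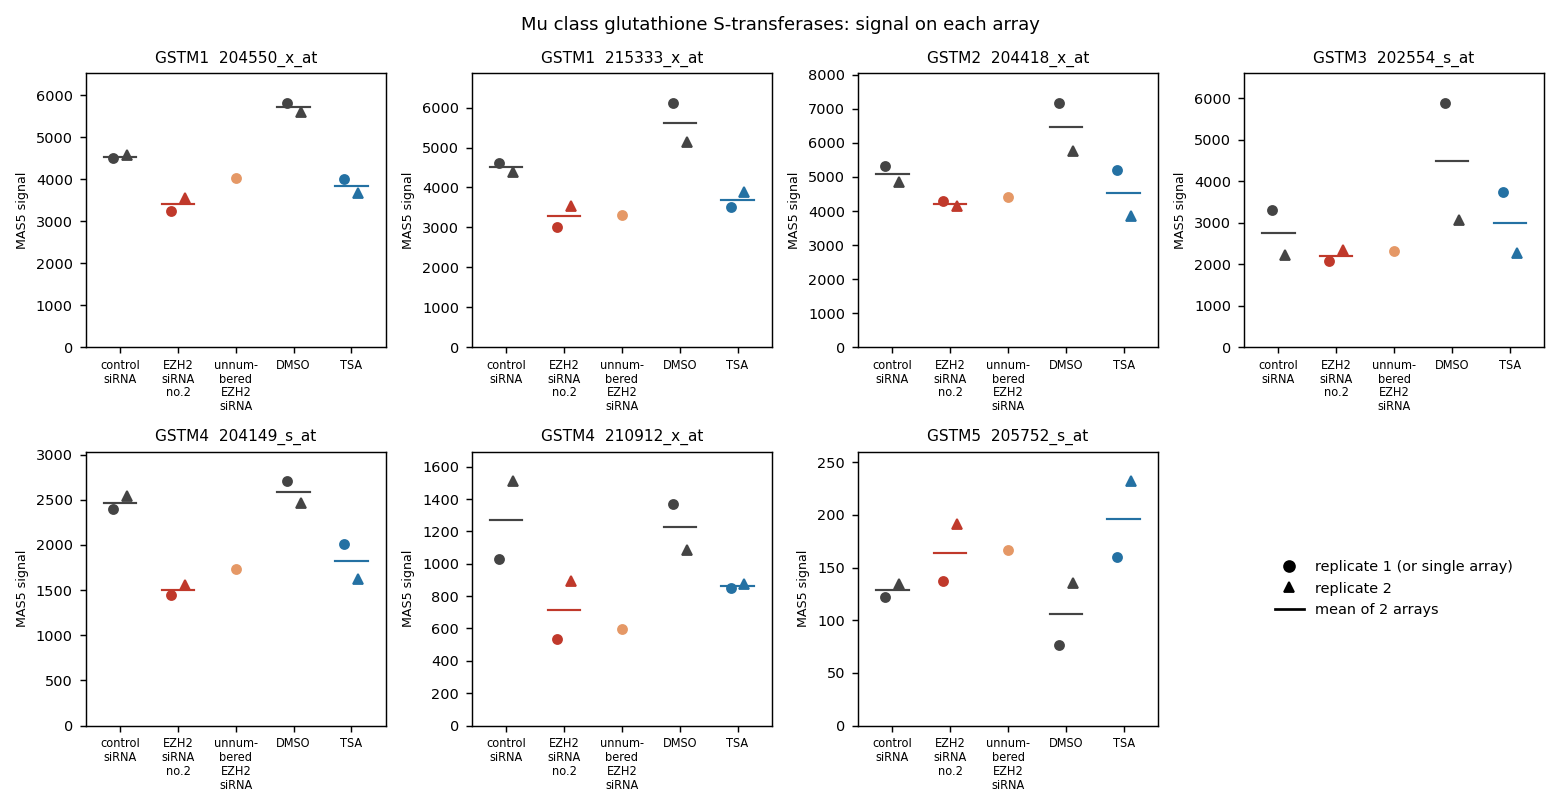
Signal on each array (MAS5 units, linear axis from 0) of the 7 mu class probe sets in the 5 groups, with circles for replicate 1 or the single array, triangles for replicate 2 and a line at the mean of 2 arrays. In GSTM1, GSTM2 and GSTM4 every EZH2 siRNA array lies below both control siRNA arrays and every TSA array below both DMSO arrays, and in GSTM5 the treated arrays lie above.

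GSTT1 of the theta class, which handles small halogenated compounds, had the largest log2 differences among the members with EZH2 siRNA no.2, with the unnumbered one and in TSA at the pseudocount used. It read 78.8 and 51.5 with the control siRNA, 23.2 and 13.5 with siRNA no.2, 11.3 with the unnumbered EZH2 siRNA, 151 and 162 in DMSO, and 43.0 and 34.8 in TSA. Only the DMSO arrays were well above the filter level of 58.1, and the mean over the 9 arrays, 63.2, passed it because of them. The 3 EZH2 siRNA signals lie below the pseudocount. The mean was 65.1 ± 19.3 (SD, n = 2) with the control siRNA and 18.3 ± 6.80 (n = 2) with siRNA no.2, and the log2 fold change was −1.05 (SE 0.40). Between DMSO (156 ± 8.42, n = 2) and TSA (38.9 ± 5.82, n = 2) it was −1.51 (SE 0.40, limma adjusted p = 1.00), with −1.37 in replicate 1 and −1.65 in replicate 2. The value with siRNA no.2 depended on the pseudocount, from −0.52 at the highest to −1.57 at the lowest, and kept its sign. At the highest pseudocount GSTM4 210912_x_at had the larger difference with both siRNAs, −0.77 with siRNA no.2 and −0.97 with the unnumbered EZH2 siRNA, where GSTT1 had −0.62.

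GSTT2, annotated in RefSeq as a transcribed pseudogene, was below the filter and was not tested. Its signals ran from 2.58 to 53.2, with a mean of 17.4, and groups overlapped throughout.

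GSTP1, the pi class enzyme often raised in tumours, read 5839.9 and 4653 with the control siRNA, 4384 and 8364 with siRNA no.2, 5397 with the unnumbered EZH2 siRNA, 6501 and 7592 in DMSO, and 3428 and 6407 in TSA. The replicates of siRNA no.2 fell on either side of their controls, and the highest TSA array was just below the lowest DMSO array. GSTP1 had a log2 fold change with siRNA no.2 of 0.22 (SE 0.35), which was −0.41 within replicate 1 and 0.84 within replicate 2. In TSA it was −0.58 (SE 0.35), and it was −0.13 without the TSA replicate 1 array and −1.03 without the TSA replicate 2 array.

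GSTO1 read 4795 and 4229.5 with the control siRNA, 4085 and 4418 with siRNA no.2, 3400.2 with the unnumbered EZH2 siRNA, 4790.45 and 4025 in DMSO, and 3148 and 4169.8 in TSA. It varied least of all members, with a standard deviation of 0.20 on the log2 scale over the 9 arrays, and its groups overlapped except for the unnumbered EZH2 siRNA, which was below both controls. Its log2 fold change was −0.08 (SE 0.23, 95% confidence interval −0.60 to 0.43) with siRNA no.2 and −0.28 (SE 0.23) in TSA. The TSA value was −0.48 without the TSA replicate 2 array and −0.074 without the TSA replicate 1 array.

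GSTZ1 read 173 and 18.4 with the control siRNA, 101 and 173 with siRNA no.2, 76.1 with the unnumbered EZH2 siRNA, 334 and 171 in DMSO, and 367 and 90.7 in TSA. Replicates of 1 group differed widely, all groups overlapped, and the standard deviation of 0.98 was the largest of the members. GSTZ1 had a log2 fold change with siRNA no.2 of 0.77 (SE 0.70), and it was −0.33 without the control siRNA replicate 2 array.

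**Figure D2:**
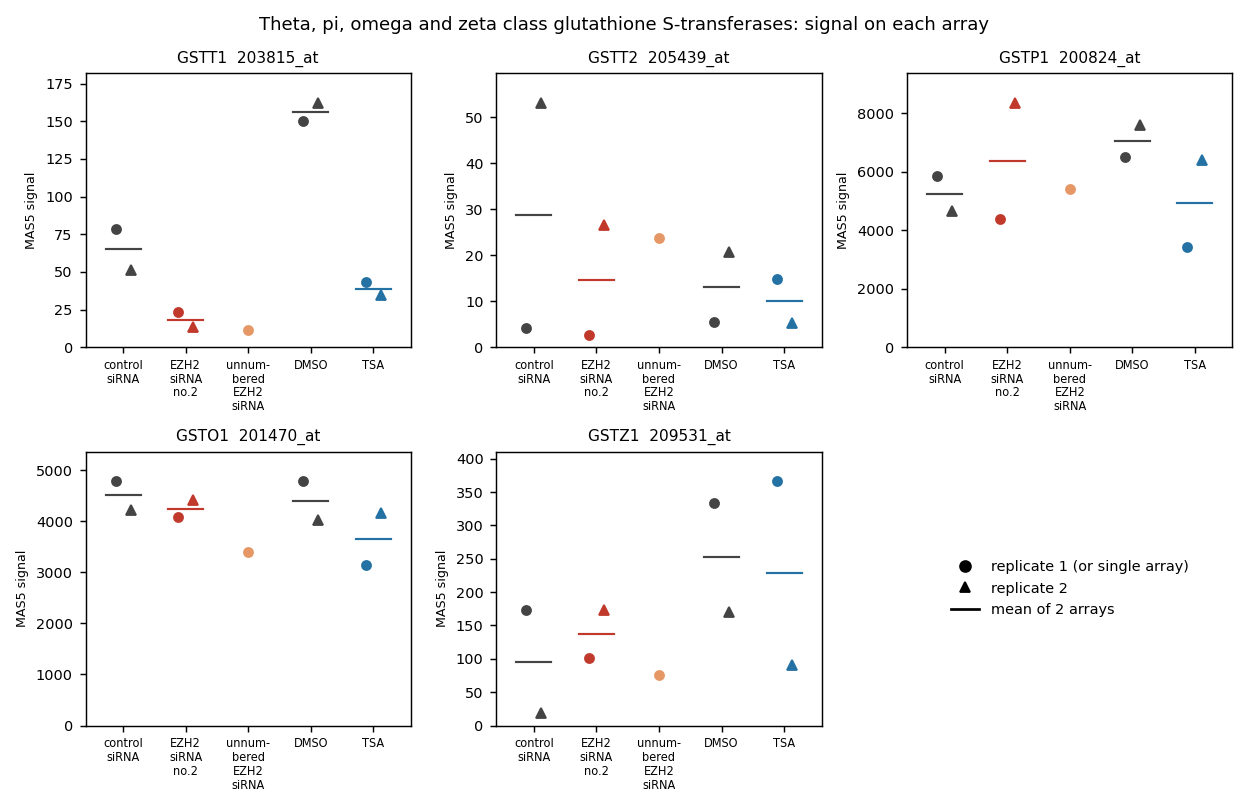
Signal on each array (MAS5 units, linear axis from 0) of the theta, pi, omega and zeta class probe sets in the 5 groups, drawn as for the mu class. GSTT1 is lower in every treated array than in both arrays of its control, GSTT2 never exceeds 53.2, and the groups of GSTO1 and GSTZ1 overlap apart from the single unnumbered EZH2 siRNA array of GSTO1.

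Across the members, EZH2 siRNA no.2 lay below the control siRNA without overlap for 6 of the 11 tested probe sets, both of GSTM1, GSTM2, both of GSTM4 and GSTT1, where 13% of all tested probe sets did. It lay above for GSTM5, where 22.3% of all did. The log2 fold change was below 0 for 8 of 11 members against 42% of all and above 0 for 3 against 58%, and its median was −0.29 against 0.07. At an unadjusted limma p under 0.05, 3 members were lower (both GSTM4 probe sets and GSTT1) against 1.75% of all, and 0 were higher against 3.54%. GSTT1 passed the filter through its DMSO arrays, and its EZH2 siRNA signals lie below the pseudocount. It is among the members counted as lower and is no support here. Members of 1 gene, and mu class probe sets that can share transcripts, are not independent of each other.

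The unnumbered EZH2 siRNA, compared with the same 2 control arrays, lay below both for 7 of 11 members, the same 6 probe sets and GSTO1, against 28.1% of all. It lay above both for GSTM5, against 39.1% of all. The log2 fold changes were −0.51 (SE 0.28) for GSTM4 204149_s_at, −1.29 (SE 0.49) for GSTT1, −0.17 (SE 0.255) for GSTM1 204550_x_at and −0.44 (SE 0.27) for GSTM1 215333_x_at, so the 2 probe sets of GSTM1 gave unlike sizes on this array. At an unadjusted limma p under 0.05, 2 members were lower (GSTM4 210912_x_at and GSTT1) against 2.23% of all and 0 were higher against 2.81%, while 8 of 11 had a log2 fold change below 0 against 43.9% and 3 above 0 against 56.1%. With 1 array, its spread is assumed to be that of the replicated groups. GSTT1, which passed the filter through its DMSO arrays and reads below the pseudocount on this array, is no support in these counts either.

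TSA lay below DMSO without overlap for 7 of 11 members, the same 6 probe sets and GSTP1, against 12.1% of all, and above it for GSTM5, against 16.1%. The log2 fold change was below 0 for 10 of 11 members against 44.7% of all and above 0 for 1 against 55.3%, with a median of −0.52 against 0.04. At an unadjusted limma p under 0.05, 5 members were lower (both GSTM1 probe sets, GSTM2, GSTM4 204149_s_at and GSTT1) against 1.18% of all, and 1 was higher (GSTM5) against 1.21%. GSTT1 had passed the filter through its DMSO arrays and is no support here, which leaves 4 of the other 10 members lower by p and 6 of them without overlap. Beside this comparison, the 3' to 5' signal ratio of ACTB, a measure of RNA integrity, was 1.25 and 1.44 in TSA and 1.14 and 1.29 in DMSO. The summed signal of the 3 liver markers, a tissue rich in these enzymes, was 107 to 137 in TSA and 184 to 211 in DMSO, with ALB at most 44.7 on any array. Summed Ewing tumour markers read 39302 to 42311 in TSA and 43103 to 43463 in DMSO, and 35560 to 37170 over the 3 EZH2 siRNA arrays against 40253 to 51555 with the control siRNA. Summed blood markers read 150.4 to 184 in TSA and 113.4 to 132.7 in DMSO, with PTPRC at most 34.4. Sums of the other marker lists overlapped between TSA and DMSO. Epithelial sums read 24.1 to 37.1 in TSA and 36.8 to 48.6 in DMSO. In the same order, endothelial sums read 127 to 157 and 123 to 142, and skeletal muscle sums 53.3 to 104 and 82.4 to 94.4. The part of these markers in the results was not tested.

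**Figure D3:**
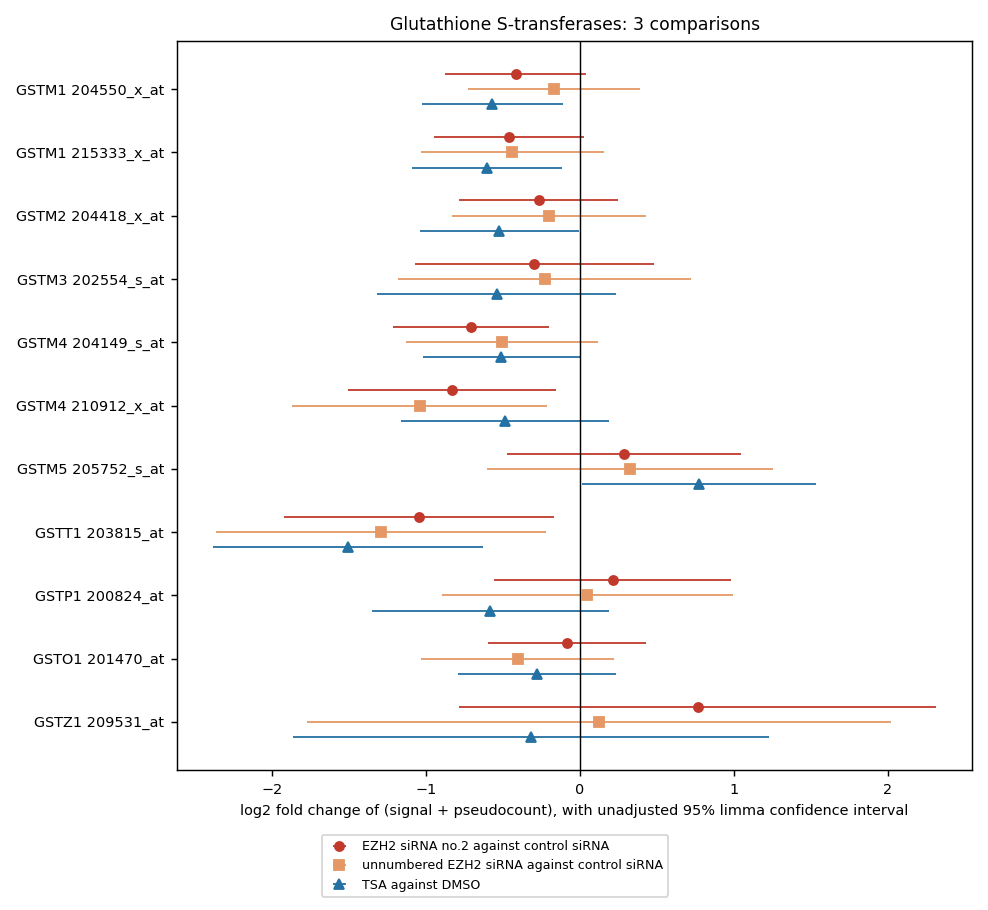
Log2 fold change of (signal + pseudocount) with its unadjusted 95% limma confidence interval for the 11 tested probe sets, for EZH2 siRNA no.2 and the unnumbered EZH2 siRNA against the control siRNA (which share their 2 control arrays) and for TSA against DMSO. GSTM5 lies to the right of 0 in all 3 comparisons, while GSTM1, GSTM2, GSTM3, GSTM4, GSTT1 and GSTO1 lie to the left in all 3.

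EZH2 siRNA no.2 against its control and TSA against DMSO share no array. Of the 11 members, 8 had a log2 fold change below 0 in both, or 72.7%, against 23.5% of all tested probe sets. GSTT1, which passed the filter through its DMSO arrays, is among the 8 and is no support here. The GSTM1, GSTM2, GSTM3 and GSTM4 probe sets among them can share transcripts and are not independent. The following counts were chosen after the values were seen. All 3 EZH2 siRNA arrays lay below both control siRNA arrays for 6 of 11 members against 9.64% of all, and above both for 1 against 16.8%. All 3 EZH2 siRNA arrays lay below both control siRNA arrays and both TSA arrays below both DMSO arrays for 6 of 11 members, the GSTM1, GSTM2, GSTM4 and GSTT1 probe sets, against 2.78% of all tested probe sets. The last count was 6 after scaling every array to a common median (4.81% of all) and 5 after quantile normalization (3.24% of all), where GSTM2 dropped out. Leaving aside GSTT1, which passed the filter through DMSO, it was 5 of 10 as deposited. The mirror count, all treated arrays above their controls, held GSTM5 alone among the members, against 4.11% of all.

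**Figure D4:**
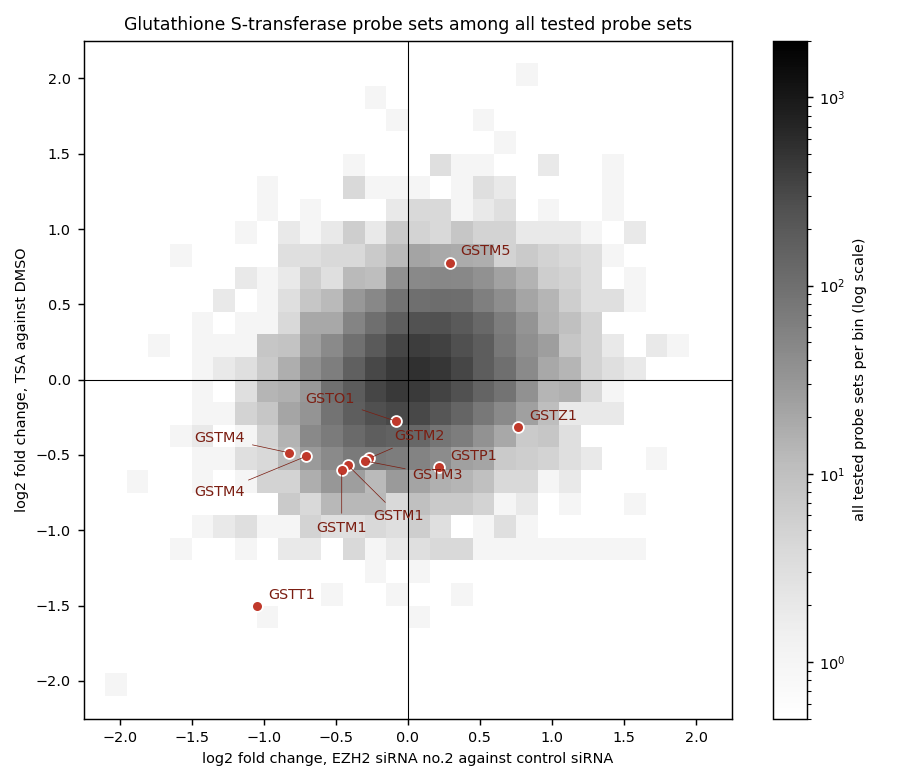
Log2 fold change with EZH2 siRNA no.2 against control siRNA (x axis) and with TSA against DMSO (y axis) for the 11 tested members (red points) over all 13345 tested probe sets (grey, number per bin on a log scale). GSTM1, GSTM2, GSTM3, GSTM4, GSTO1 and GSTT1 fall at the lower left, GSTT1 farthest out, and GSTM5 in the upper right.

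The difference between the effects of siRNA no.2 and TSA was tested directly and passed for no member (limma adjusted p = 1.00 for each), with 0 of 11 members at an unadjusted limma p under 0.05 against 1.08% of all higher and 0.592% lower. The difference was above 0 for 8 of 11 members against 53.3% of all and below 0 for 3 against 46.7%. GSTT1, which passed the filter through its DMSO arrays, is among the 8 and is no support here. For GSTM4 204149_s_at the effect of siRNA no.2 minus that of TSA was −0.20 (SE 0.33, 95% confidence interval −0.92 to 0.52), and for GSTT1 it was 0.46 (SE 0.56, −0.78 to 1.70). GSTP1 had 0.80 (SE 0.495, −0.29 to 1.89). Leaving out 1 array in turn gave −0.35 (without TSA replicate 2) to −0.042 (without TSA replicate 1) for GSTM4 204149_s_at, 0.24 (without control siRNA replicate 2) to 0.68 (without control siRNA replicate 1) for GSTT1, and 0.33 (without siRNA no.2 replicate 2) to 1.26 (without siRNA no.2 replicate 1) for GSTP1. These intervals are wide, so they do not show that the treatments act alike.

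The 2 kinds of control were not at the same level for several members. DMSO lay above the control siRNA without overlap for 5 of 11 members, both GSTM1 probe sets, GSTM2, GSTT1 and GSTP1, against 19.4% of all, and below it for 0, against 14.6%. After scaling every array to a common median, 2 members lay above (12.5% of all), GSTM1 204550_x_at and GSTT1, and GSTM5 lay below (20.8% of all). After quantile normalization 6 lay above (17.2% of all), the 5 and GSTM3, and GSTM5 again lay below (17.4% of all). The log2 fold change was above 0 for 8 of 11 members against 53.9% of all and below 0 for 3 against 46.1%. At an unadjusted limma p under 0.05, 1 member was higher, against 2.93% of all, and 0 were lower, against 1.33%. The 1 was GSTT1, which had passed the filter through its DMSO arrays, so nothing is read from it. GSTT1 is also among the members counted as higher in the overlap counts under each scaling and in the sign count. It is no support in those counts either. GSTT1 had a log2 fold change of 1.02 (SE 0.40) and GSTM1 204550_x_at of 0.33 (SE 0.21), while GSTM4 204149_s_at had 0.06 (SE 0.23). GSTM1 204550_x_at in TSA, at 3686 and 4010.05, was also below both control siRNA arrays, and GSTT1 in TSA, at 34.8 and 43.0, was below them too. DMSO and the control siRNA differ in both agent and time, which cannot be told apart here, and the comparison shares DMSO with the TSA comparison and the control siRNA with the EZH2 siRNA comparisons.

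Likeness between members was measured as the root mean square difference of their log2 signals over the 9 arrays, each centred on its own mean. The 2 GSTM1 probe sets were the closest pair, at 0.12. GSTM1 204550_x_at stood at 0.13 from both GSTM2 and GSTM4 204149_s_at, and the 2 GSTM4 probe sets at 0.25 from each other. By nearness to GSTM1 204550_x_at among all tested probe sets, GSTM1 215333_x_at ranked 5, GSTM2 10 and GSTM4 204149_s_at 11. By nearness to GSTM4 204149_s_at, the other GSTM4 probe set ranked 416. GSTM5 was 0.47 or more from every other member and 1.09 from GSTT1. Among all other genes tested, the 5 closest to GSTM4 204149_s_at were GSTM1 (0.128), PPWD1 (0.132), TNFAIP6 (0.132), FUZ (0.132) and PIAS2 (0.133). GSTM1 is the next gene but 1 along the chromosome, and the probe sets can share transcripts. TNFAIP6 read a mean of 3877 with the control siRNA and 2594 with siRNA no.2, a log2 fold change of −0.58.

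**Figure D5:**
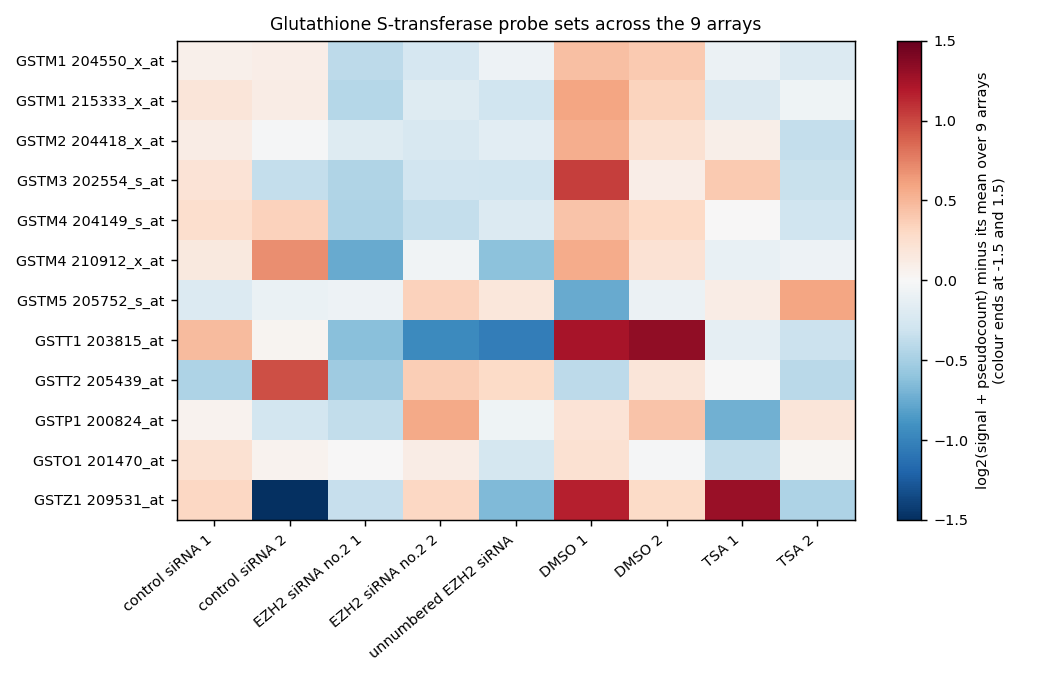
Log2(signal + pseudocount) of the 12 member probe sets (rows) on the 9 arrays (columns), each row minus its own mean, with red above and blue below it and colours ending at −1.5 and 1.5. The DMSO columns are red for GSTM1, GSTM2, GSTM3, GSTM4 and GSTT1, and the EZH2 siRNA columns are blue for GSTM1, GSTM2, GSTM3, GSTM4 and GSTT1.

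The other genes of glutathione biology were taken from 5 lists of 44 genes, of which 33 were tested by their brightest probe set. None passed the adjusted threshold in limma with siRNA no.2 or TSA. At an unadjusted p under 0.05, siRNA no.2 had 1 of 33 higher and 3 lower, against 3.54% and 1.75% of all probe sets, and TSA had 0 higher and 3 lower, against 1.21% and 1.18%. The log2 fold change was below 0 for 13 of 33 with siRNA no.2 and for 26 of 33 in TSA, against 42% and 44.7% of all tested probe sets. DMSO itself lay above the control siRNA without overlap for 12 of 33 and below it for 3, against 19.4% and 14.6% of all. Within each list the 2 genes of smallest p are named.

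Of the 6 other transferases tested, 4 were below 0 with siRNA no.2 and 4 in TSA. MGST2, a membrane-bound transferase of leukotriene synthesis, read 389 and 655 with the control siRNA and 207 and 353 with siRNA no.2, a log2 fold change of −0.84 (SE 0.35) with no overlap. GSTA4, an alpha class enzyme of lipid peroxidation products, had −0.35 (SE 0.25) with siRNA no.2 and −0.53 (SE 0.25) in TSA. Its mean was 1438 with the control siRNA, 2424 in DMSO and 1670 in TSA, so TSA was below DMSO only. In TSA the other named gene, MGST3, read 2808 and 2824 against 4059 and 3784 in DMSO, a log2 fold change of −0.47 (SE 0.22).

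Among the 7 genes of glutathione synthesis and supply, 6 were above 0 with siRNA no.2, against 58% of all tested probe sets. In TSA 7 of 7 were below 0, against 44.7% of all. DMSO against the control siRNA was above 0 for 5 of the 7, against 53.9% of all. SLC7A11, the cystine importer, read 682 and 662 with the control siRNA and 1142 and 1755 with siRNA no.2, a log2 fold change of 1.05 (SE 0.27, limma adjusted p = 0.913) with no overlap. GSS, glutathione synthetase, had −0.66 (SE 0.25) with siRNA no.2, with 869 and 1142 in the controls and 602 and 643 in the treated arrays. In TSA, CTH, which makes cysteine, had −0.69 (SE 0.29) and CBS, the step before it, −0.29 (SE 0.25). The mean of CTH was 348 with the control siRNA, 737 in DMSO and 450 in TSA, so TSA was below DMSO only.

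Of 9 genes of reduction and peroxidases, 5 were below 0 with siRNA no.2 and 7 in TSA. GPX4, which reduces lipid hydroperoxides, had −0.62 (SE 0.26) with siRNA no.2 and −0.55 (SE 0.26) in TSA, without overlap in either comparison. GPX7 had −0.55 (SE 0.29) with siRNA no.2, and PGD, a source of NADPH, −0.49 (SE 0.21) in TSA.

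Among 5 genes of breakdown and export, 1 was below 0 with siRNA no.2 and 4 in TSA. CHAC1, which degrades glutathione, read 285 and 344 in DMSO and 80.3 and 139 in TSA, a log2 fold change of −1.37 (SE 0.35). With the control siRNA it read 186 and 143, also below both DMSO arrays. GGCT had −0.47 (SE 0.38) in TSA, and with siRNA no.2 the named genes were ABCC1, an exporter of conjugates, at 0.31 (SE 0.32) and CHAC1 at 0.31 (SE 0.35). Of the 6 genes of NRF2 and its targets, 2 were below 0 with siRNA no.2 and 4 in TSA. ME1 had 0.26 (SE 0.24) and KEAP1, the repressor of NRF2, −0.25 (SE 0.24) with siRNA no.2, while in TSA HMOX1 had −0.81 (SE 0.61) and NFE2L2, which encodes NRF2, 0.28 (SE 0.24).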

How the data were processed

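RNA of 9 samples was measured on Affymetrix U133 arrays. The deposited intensity values are MAS5 signals made by the authors, per the submitters' processing notes, used here without detection calls or a stated software version. The platform annotation names 1 gene for 19065 of 22283 probe sets, several for 1043 and none for 2107, and 68 are controls. A pseudocount of 25.1, the 20th percentile of all values, was added before log2. Probe sets naming 1 gene were tested when their mean signal reached 58.1, the 30th percentile of the means of such probe sets (13345). The wording of the plan also allows a percentile over all probe sets (53.2, 13671 tested), which was tried after a first fit had been seen and is given as an added alternative.

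A limma model (version 3.58.1, R 4.3.3) of the 5 group means took in all arrays (eBayes with trend, 4 residual degrees of freedom, two-sided, Benjamini-Hochberg, threshold 0.05). The fit was tested on simulated data. Named were all member probe sets, EZH2, from each list the genes past the threshold or else the 2 of smallest p, and the 5 genes closest to GSTM4. The members and lists were chosen with earlier results of these data known. Promoter sequences come from RefSeq (8 of 10 members matched) and were aligned with Biopython 1.88. The alternatives were 2 other pseudocounts, no filter and a filter at the 50th percentile, 1 probe set per gene, quantile normalization, median scaling, eBayes without trend, a fit restricted to the groups compared, pooling the 3 EZH2 siRNA arrays, replicate blocks and each array left out.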

Additional observations from a re-analysis of the deposited data

How the results depend on the processing

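In every comparison and alternative run, 0 probe sets passed the adjusted threshold, except that the unnumbered EZH2 siRNA fitted with only its own groups gave 1 (lowest limma adjusted p = 0.0403), with 1 array against 2. Of 1130 member values recomputed, 1106 kept their sign and stayed short of the threshold and 24 changed sign. In the comparisons of either EZH2 siRNA with the control siRNA and of TSA with DMSO, no alternative reversed GSTM1, GSTM2, GSTM4, GSTM5 or GSTT1. Scaling every array to a common median, GSTP1 with the unnumbered EZH2 siRNA became −0.061 and GSTM4 204149_s_at in DMSO against control siRNA −0.035. GSTZ1 with the unnumbered EZH2 siRNA became −0.021 with the pseudocount at the 40th percentile and −0.40 with a replicate block that counts this array with replicate 1. Leaving out 1 array in turn gave log2 fold changes with siRNA no.2 of −0.25 to 0.68 for GSTP1, −0.17 to 0.0063 for GSTO1 and −0.33 to 1.86 for GSTZ1. In TSA GSTZ1 ran from −1.20 to 0.56. With the unnumbered EZH2 siRNA, GSTM3 ran from −0.51 to 0.056, GSTP1 from −0.11 to 0.21 and GSTZ1 from −0.97 to 1.22. In DMSO against control siRNA, GSTM4 204149_s_at ran from −0.0040 to 0.13, GSTM4 210912_x_at from −0.31 to 0.24, GSTM5 from −0.60 to 0.065 and GSTO1 from −0.16 to 0.089. For the difference between both effects, GSTM3 ran from −0.22 to 0.72, GSTM4 210912_x_at from −0.70 to 0.011, GSTO1 from −0.0095 to 0.39 and GSTZ1 from −0.0094 to 2.18. The cause was not tested. The replicate numbers were used as a replicate block without the unnumbered array, which gave 0 adjusted calls and raised the count at an unadjusted limma p under 0.05 from 706 to 1168 with siRNA no.2 and from 320 to 588 in TSA. The deviations of same-numbered arrays correlated at 0.10 to 0.42, and with 2 numbers only the arrays share a number and no stated pairing. The mean log2 signal of the 18 hybridisation control probe sets was 9.81 to 10.16 on replicate 1 arrays and 10.43 to 10.53 on replicate 2 arrays. It was 9.80 on the unnumbered array. The 3' to 5' ratio of ACTB was also lower in replicate 1 than in replicate 2 of each group, and 1.26 on the unnumbered array. The part of these differences in the results was not tested. Median scaling moved the median of all probe sets with siRNA no.2 from 0.07 to −0.06 and turned the unadjusted split from 472 higher and 234 lower to 217 and 456, and quantile normalization gave 340 and 304. The added filter over all probe sets gave 721 and 330 unadjusted calls with siRNA no.2 and TSA. Groups of 2 arrays, and signals near the pseudocount for GSTT1, GSTT2 and 1 GSTZ1 array, limit these values. The block without the unnumbered array gives no value for that siRNA, and pooling the 3 EZH2 siRNA arrays bears only on siRNA no.2 and on the difference from TSA.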
